A study of Mus musculus with 24 samples.

Results

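A set of 30 genes of fatty acid oxidation, ketogenesis and gluconeogenesis, with 3 genes of fatty acid synthesis among them, was followed in liver and bone marrow of Erfe-/- mice after a bleed. The genes were chosen by symbol, and all 30 were found among the 37008 gene names of the arrays. The mice were male, and 4 mice were studied at each of 0, 24 and 48 h. Blood was taken by retro-orbital puncture, and total RNA of each tissue was hybridised to a 1-colour Agilent array. This gave 6 groups of 4 arrays: liver and marrow at 0 h, labelled control and called unbled here, and both tissues at 24 h and at 48 h, labelled phlebotomy. The labels do not say whether the mice at 0 h were bled just before sampling. All groups carry the same deletion of Erfe, which encodes erythroferrone, a hormone made by erythroblasts after blood loss, so there is no group with the gene intact. Age, strain background, feeding state and hour of sampling are not given in the sources used here, nor whether liver and marrow of a number came from 1 mouse. The question put to the members was whether liver moved toward a fasted or a fed pattern after bleeding, with marrow beside it.

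In a fed liver, insulin favours glucose use and the making of fatty acids from glucose. In fasting, fatty acids released by adipose tissue enter hepatocyte mitochondria and are shortened by beta-oxidation, the acetyl-CoA is turned into ketone bodies, and glucagon and glucocorticoids raise the enzymes that make new glucose. The nuclear receptor encoded by Ppara, which binds fatty acids, and the coactivator encoded by Ppargc1a turn on much of this programme.

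Each level below is the log2 signal of 1 probe minus the log2 of the 75th percentile of its array, so 0 is that percentile and a change is a difference of 2 such levels. Levels of different probes cannot be set against each other. The 75th percentile was 361 to 473 intensity units on the 12 liver arrays and 715 to 955 on the 12 marrow arrays, no spot was saturated, and 28014 to 35700 of 56605 probes were well above background on an array. The Erfe probe was well above background on 0 of 4 arrays in each of the 6 groups; whether it lies in the deleted stretch is not given in the sources used here. In liver, the 10 hepatocyte markers were above background on all arrays, and in marrow the 8 erythroid and 6 neutrophil markers were. A single array stood apart: on the marrow array labelled 24 h replicate 2, the 10 hepatocyte markers had a median of 13.7% of their liver level (7.79% to 39.7%), where each of the other 11 had a median between 0.0019% and 0.0243%. On that array 19 of the 30 members were above every other marrow array: the level of Fabp1, a fatty acid carrier of hepatocytes, was 6.19 there and at most -2.64 on the others. The main marrow changes and counts are therefore given with and without it.

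All 30 members were well above background on all 12 liver arrays. With limma and Benjamini-Hochberg adjustment over 19639 genes, 0 of 30 members passed an adjusted p of 0.05 in liver at 24 h against 0 h, 0 at 48 h against 0 h and 0 at 48 h against 24 h. Over all genes the share called was 0% in each of these 3 comparisons. At an unadjusted limma p under 0.05 stood 4 members at 24 h, where 10.9% of all genes did, and 4 at 48 h, where 6.45% did. The fitted change was above 0 for 9 of 30 members at 24 h and for 9 of 30 at 48 h, against 44.5% and 44.1% of all genes. Both times share the 4 unbled livers. The median change of the 27 members other than Fasn, Acaca and Scd1 was -0.05 at 24 h and -0.06 at 48 h. That of all genes was -0.02 at both times. Whether fasting raises each of the 27 was not tested here. The 95% interval of the change lay within -1 to 1 for 25 of 30 members at each time. In bulk tissue, fewer cells of a type and less RNA per cell cannot be told apart.

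**Figure D1:**
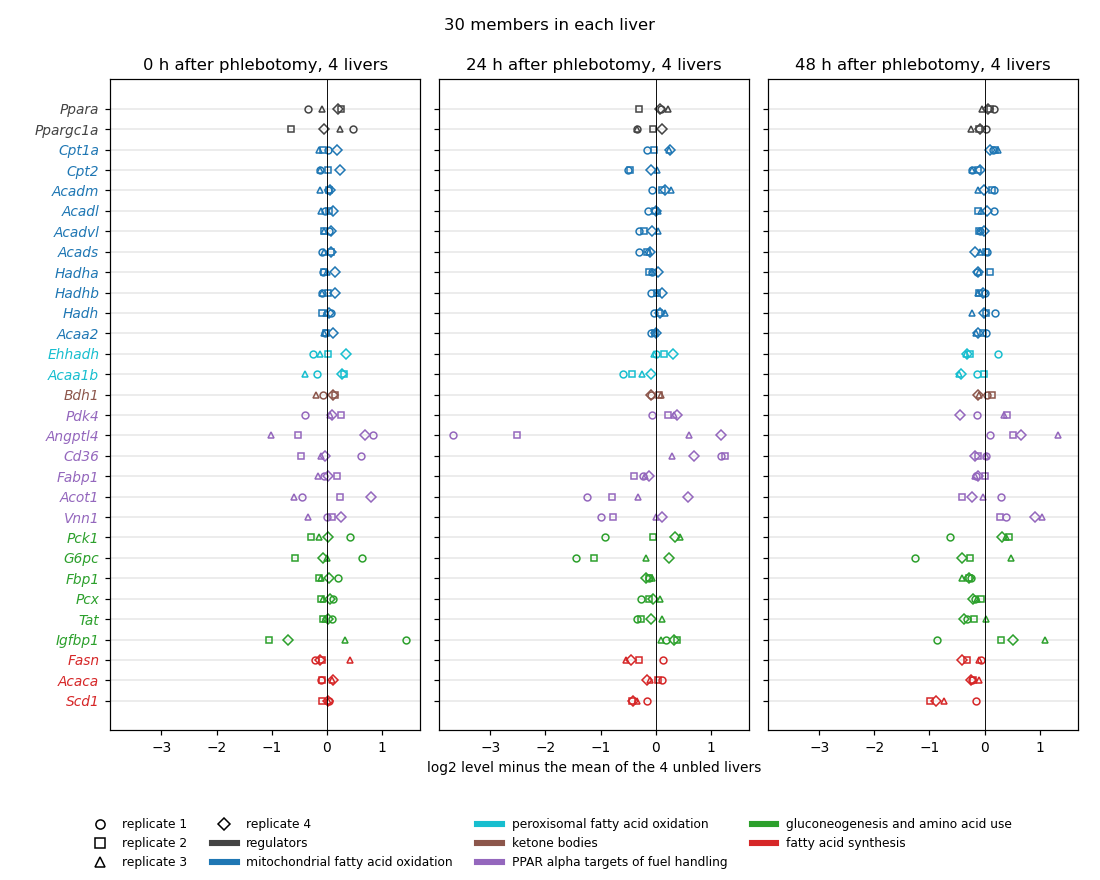
Level of each of the 30 members in each liver at 0, 24 and 48 h, as log2 level minus the mean of the 4 unbled livers (horizontal axis), 1 symbol per replicate and 1 colour per role. Most oxidation genes lie close to 0 at all times, Angptl4 ranges from 0.62 to 5.46 in level at 24 h, and Scd1 lies below 0 in all 4 livers at 48 h.

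**Figure D2:**
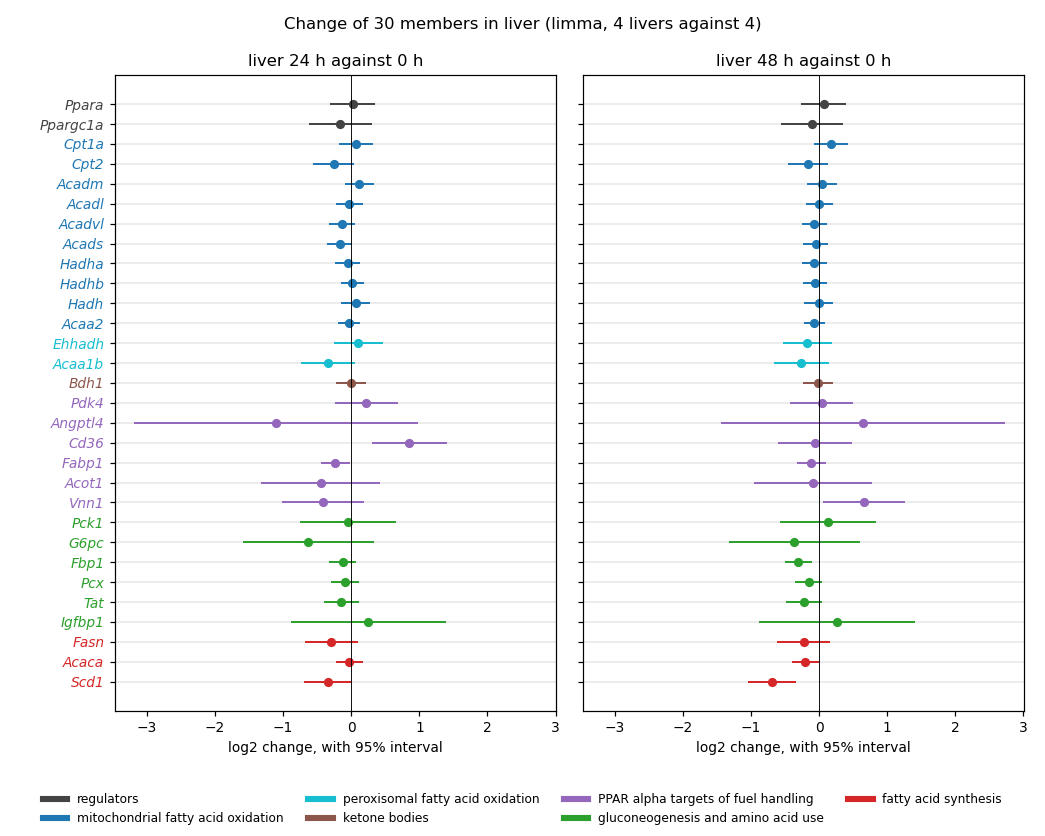
Fitted log2 change (points) with its 95% interval (bars) of each member in liver at 24 h and at 48 h against 0 h, from limma on 4 livers against 4. Of the 30 intervals, 25 lie within -1 to 1 at each time, and the widest belongs to Angptl4.

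For both regulators the groups overlapped at all times. Ppara had levels of 4.60, 5.19, 4.85 and 5.14 in the unbled livers, 5.04, 4.63, 5.16 and 5.02 at 24 h and 5.11, 5.04, 4.89 and 5.01 at 48 h. No time stood apart, and its change was 0.02 ± 0.14 (SE) at 24 h and 0.07 ± 0.14 at 48 h. Ppargc1a, which joins Ppara at oxidation genes and other factors at gluconeogenic genes, was at 1.60, 0.49, 1.36 and 1.08 at 0 h. It was at 0.79, 1.07, 0.80 and 1.24 at 24 h and at 1.16, 1.02, 0.88 and 1.05 at 48 h. The unbled livers spanned a wider range than either bled group, and the change was -0.16 ± 0.20 (SE) and -0.10 ± 0.20.

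Mitochondrial oxidation was represented by 10 members, and their changes lay between -0.26 and 0.12 at 24 h and between -0.17 and 0.17 at 48 h. Cpt1a encodes the carnitine palmitoyltransferase that admits long-chain fatty acids to the mitochondrion and is a standard fasting-raised gene. Its levels were 4.31, 4.21, 4.15 and 4.48 at 0 h, 4.12, 4.25, 4.52 and 4.55 at 24 h and 4.44, 4.47, 4.53 and 4.39 at 48 h. The groups overlapped, with a change of 0.07 ± 0.11 (SE) at 24 h and 0.17 ± 0.11 at 48 h, and the upper ends of the 95% intervals were 0.31 and 0.41. Cpt2, the inner-membrane partner of Cpt1a, had changes of -0.26 ± 0.13 and -0.17 ± 0.13. The acyl-CoA dehydrogenases take the first step of each round for chains of different length. Acadm, for medium chains, had changes of 0.12 and 0.04, Acadl, for long chains, of -0.03 and 0.00, and Acadvl, for very long chains, of -0.14 and -0.07. Acads, the dehydrogenase of short chains, was among the 4 members of smallest p at 24 h. Its levels were 3.66, 3.82, 3.71 and 3.83 at 0 h, 3.46, 3.60, 3.64 and 3.66 at 24 h and 3.79, 3.79, 3.67 and 3.59 at 48 h. All 4 livers at 24 h lay below all unbled livers, by 0.17 on average (SE 0.08; adjusted p from limma 0.45; exact permutation p 0.0286, two-sided, the smallest that 4 against 4 allows). At 48 h the groups overlapped, with a change of -0.05. Hadha and Hadhb, the trifunctional protein, Hadh, the short-chain hydroxyacyl-CoA dehydrogenase, and Acaa2, the thiolase, had changes of -0.07 to 0.07 over both times, with SE of 0.06 to 0.09.

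Peroxisomes shorten very long chains, and both peroxisomal members are known targets of Ppara. Ehhadh, the bifunctional enzyme, had a change of 0.11 ± 0.16 (SE) at 24 h and -0.17 ± 0.16 at 48 h. Acaa1b, a thiolase, had changes of -0.34 ± 0.18 and -0.26 ± 0.18, and its groups overlapped at both times. Ketone bodies were represented by Bdh1, the mitochondrial 3-hydroxybutyrate dehydrogenase. Its levels in liver were 4.82, 5.03, 4.69 and 4.98 at 0 h, 4.79, 4.94, 4.97 and 4.78 at 24 h and 4.92, 5.01, 4.78 and 4.76 at 48 h. The values of all 3 groups fell in the same range, and the change was -0.01 ± 0.09 at both times, with 95% intervals of -0.21 to 0.20 and -0.22 to 0.19.

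Another 6 members are fuel-handling targets of Ppara, and their changes ran from -1.11 to 0.85 at 24 h and from -0.11 to 0.66 at 48 h. Pdk4 blocks pyruvate dehydrogenase and so spares glucose in fasting. Its levels were 0.58, 1.24, 1.04 and 1.08 at 0 h, 0.92, 1.21, 1.32 and 1.38 at 24 h and 0.84, 1.38, 1.33 and 0.53 at 48 h. The groups overlapped, and the change was 0.22 ± 0.20 (SE) at 24 h and 0.04 ± 0.20 at 48 h. Angptl4, a secreted inhibitor of lipoprotein lipase, had levels of 5.13, 3.77, 3.29 and 4.97 at 0 h. At 24 h it was at 0.62, 1.77, 4.89 and 5.46, and at 48 h at 4.39, 4.81, 5.62 and 4.95. Replicates 1 and 2 of the 24 h group lay below every other liver, while replicates 3 and 4 lay in the range of the other groups. Its SD at 24 h was 2.36 (n = 4), larger than that of 99.97% of the genes tested, whose median SD was 0.17. The change was -1.11 ± 0.94 at 24 h (adjusted p 0.68) and 0.65 ± 0.94 at 48 h (adjusted p 0.97). In the same livers of replicates 1 and 2 at 24 h, Acot1, an acyl-CoA thioesterase, was at 0.32 and 0.76 against 1.23 and 2.14 in replicates 3 and 4, and its change was -0.45 ± 0.39.

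Cd36, a fatty acid uptake receptor that is also found on macrophages, endothelium and adipocytes, had the smallest p of the members at 24 h. Its levels were 0.37, -0.72, -0.36 and -0.28 at 0 h, 0.93, 1.01, 0.04 and 0.45 at 24 h and -0.22, -0.37, -0.22 and -0.42 at 48 h. At 24 h 3 of 4 livers exceeded all unbled livers, and all 4 exceeded all livers at 48 h. The difference from 0 h was 0.85 ± 0.24 (SE), 1.81-fold, with a limma p of 0.0045 and an adjusted p of 0.341; the exact permutation p was 0.0571. Within the 3 slides it was 1.11, 1.37 and 0.52. At 48 h it was -0.06 ± 0.24. The Cd36 probe lies at chr5:17288600-17288659 on the minus strand of mm9; whether it lies in coding sequence or a UTR was not analysed here. The summed log2 level of 8 adipocyte markers was 2.78 to 3.79 in the livers at 24 h, 2.42 to 2.67 at 0 h and 2.51 to 2.81 at 48 h. Of the 7 adipocyte markers tested at 24 h, 1 was higher and 3 were lower at an unadjusted limma p under 0.05, where 4.93% and 5.97% of all genes were. Adipoq, which defines the type, was above background on no liver array at 0 or 48 h. The part of the adipocyte markers in the level of Cd36 was not tested.

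Fabp1 had levels of 9.63, 9.87, 9.51 and 9.70 at 0 h, 9.44, 9.29, 9.47 and 9.56 at 24 h and 9.52, 9.69, 9.49 and 9.55 at 48 h. The 24 h livers lay lower with overlap, by 0.24 (SE 0.09; limma p 0.0233, adjusted p 0.409), and the change at 48 h was -0.11 ± 0.09. Vnn1, a pantetheinase raised by fasting, had levels of -1.24, -1.15, -1.59 and -0.99 at 0 h, -2.23, -2.02, -1.25 and -1.12 at 24 h and -0.86, -0.96, -0.20 and -0.33 at 48 h. All 4 livers at 48 h lay above all unbled livers and above all livers at 24 h. The difference from 0 h was 0.66 ± 0.27 (SE; adjusted p 0.737; exact permutation p 0.0286) and that from 24 h was 1.07 ± 0.27 (adjusted p 0.437). Vnn1 was the single member whose 48 h group lay wholly above 0 h, where 1.77% of all genes had groups that did not overlap in that direction.

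Fabp1 is shown with its promoter because it was the one member whose promoter held a near-complete direct repeat of the kind that Ppara binds. Promoter windows of 250 bases before the start (RefSeq, GRCm38.p6) were at hand for 26 of the 30 members and were searched on both strands. The repeat was taken as 2 copies of AGGTCA in the same direction with any 1 base between them, and it lay in 0.0335% of 32851 promoters and in no member. With AGGNCA in place of AGGTCA, where N is any base, it lay in 0.338% of promoters and in 1 member, Fabp1. The Fabp1 window is chr6:71199629-71199878 on the plus strand, and the match, read on the opposite strand, is in capitals and begins 67 bases before the start. A match describes letters and is not a measured binding site.
Fabp1: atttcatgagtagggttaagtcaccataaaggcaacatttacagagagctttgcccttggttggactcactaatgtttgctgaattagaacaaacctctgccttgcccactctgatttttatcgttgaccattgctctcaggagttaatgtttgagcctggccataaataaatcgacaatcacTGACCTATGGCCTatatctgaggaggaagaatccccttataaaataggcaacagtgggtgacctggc

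Gluconeogenesis and amino acid use were represented by 6 members. Pck1, which makes phosphoenolpyruvate, had levels of 7.75, 7.05, 7.20 and 7.37 at 0 h, 6.43, 7.30, 7.78 and 7.68 at 24 h and 6.71, 7.79, 7.73 and 7.66 at 48 h. In each bled group 1 liver lay below all unbled livers and 1 lay above them. The change was -0.04 ± 0.32 (SE) at 24 h and 0.13 ± 0.32 at 48 h. G6pc, the phosphatase that releases free glucose, had levels of 7.25, 6.02, 6.61 and 6.53 at 0 h, 5.15, 5.48, 6.43 and 6.84 at 24 h and 5.34, 6.34, 7.09 and 6.20 at 48 h. Replicates 1 and 2 at 24 h and replicate 1 at 48 h were the 3 lowest livers, with changes of -0.63 ± 0.43 and -0.36 ± 0.43. Fbp1, fructose-1,6-bisphosphatase, was the member of second smallest p at 48 h. It was at 8.77, 8.41, 8.46 and 8.60 at 0 h, at 8.44, 8.43, 8.49 and 8.38 at 24 h and at 8.32, 8.28, 8.16 and 8.27 at 48 h. All livers at 48 h lay below all livers of both other groups. The difference from 0 h was -0.30 ± 0.08 (SE), 1.23-fold, with a limma p of 0.0034 and an adjusted p of 0.529. Within slides it was -0.27, -0.24 and -0.33. Pcx, pyruvate carboxylase, had changes of -0.09 ± 0.08 and -0.15 ± 0.08, and Tat, the tyrosine aminotransferase induced by glucocorticoids, of -0.14 ± 0.11 and -0.22 ± 0.11.

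Igfbp1, a secreted binder of insulin-like growth factors that insulin represses within hours, spread widely. Its levels were 8.72, 6.22, 7.61 and 6.57 at 0 h, 7.46, 7.67, 7.38 and 7.62 at 24 h and 6.42, 7.58, 8.38 and 7.79 at 48 h. The unbled livers held both the highest and the lowest value of the 12. Its SD was 1.12 at 0 h, larger than that of 99.3% of genes, then 0.14 at 24 h and 0.82 at 48 h (n = 4 each). The change was 0.25 ± 0.51 (SE) at 24 h and 0.26 ± 0.51 at 48 h, and the upper ends of the 95% intervals were 1.38 and 1.39. Across livers, 3 pairs of members were correlated over all 12, with Benjamini-Hochberg adjustment over 6 permutation p-values. For Pck1 and Igfbp1, Pearson's r was 0.55 (permutation p 0.0679, adjusted 0.326) and Spearman's rho 0.45 (p 0.14, adjusted 0.326), and r was 0.65 without the 2 livers farthest from the median of Pck1. For Pdk4 and Scd1, r was -0.23 (permutation p 0.469, adjusted 0.597), rho was -0.43 (p 0.163, adjusted 0.326) and r without 2 livers was -0.68. For Pdk4 and Angptl4, r was 0.08 (permutation p 0.826), rho was 0.22 (p 0.497, adjusted 0.597) and r without 2 livers was 0.52. None passed, and all 3 pairs had a larger r in size without 2 livers. Within the 3 groups, r was 0.55, -0.36 and 0.27 in the same order.

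The 3 fatty acid synthesis members, which feeding and insulin raise, had changes below 0 at both times on their brightest probes, with an exception by probe for Acaca at 24 h. Scd1, the stearoyl-CoA desaturase that makes monounsaturated fatty acids, had the smallest p of the 30 at 48 h. Its levels were 8.10, 7.99, 8.09 and 8.09 at 0 h, 7.91, 7.63, 7.72 and 7.65 at 24 h and 7.90, 7.07, 7.34 and 7.19 at 48 h. Every bled liver lay below every unbled liver, and replicate 1 was the highest liver of both bled groups. The difference was -0.34 ± 0.15 (SE) at 24 h (limma p 0.0466, adjusted p 0.451) and -0.69 ± 0.15 at 48 h, 1.62-fold, with a limma p of 0.00077 and an adjusted p of 0.474. The exact permutation p was 0.0286 at each time. Within the 3 slides the 48 h difference was -0.14, -0.89 and -0.90. Without replicate 1 of the 48 h group Scd1 passed, at -0.87 (adjusted p from limma 0.0106), where 0.0458% of 19645 genes were called. Over all 19 settings tried its adjusted p ran from 0.0106 to 0.9999, and the value that passed was the only one. The Scd1 probe lies at chr19:44469387-44469446 on the minus strand of mm9, the build of the array design. A dimmer Scd1 probe, placed on the opposite strand, was lower by 0.63 at 24 h and by 0.87 at 48 h, with adjusted p of 0.379 and 0.587 over 28784 probes.

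Acaca, acetyl-CoA carboxylase, which makes the malonyl-CoA for chain growth, had levels of 3.79, 3.80, 3.99 and 4.00 at 0 h, 4.01, 3.94, 3.79 and 3.74 at 24 h and 3.66, 3.69, 3.79 and 3.64 at 48 h. The 48 h livers lay just below all unbled livers, by 0.20 (SE 0.08; limma p 0.0326, adjusted p 0.743), and the change at 24 h was -0.03. Of the other tested probes of Acaca, 2 gave 0.07 and 0.01 at 24 h and -0.13 and -0.06 at 48 h. Fasn, the synthase itself, was at 6.90, 7.04, 7.55 and 7.0 at 0 h, at 7.25, 6.82, 6.59 and 6.67 at 24 h and at 7.07, 6.80, 7.02 and 6.71 at 48 h. Its groups overlapped, with changes of -0.29 ± 0.17 (SE) and -0.23 ± 0.17. In all, groups lay wholly below 0 h for Acads and Scd1 at 24 h, where 3.23% of all genes did, and for Scd1, Fbp1 and Acaca at 48 h, where 2.44% did.

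Beside the members, 54 further genes of these pathways were tested in liver, and 0 of 54 passed the adjusted p of limma at either time. At an unadjusted p under 0.05, 5 were higher and 10 lower at 24 h, and 0 were higher and 7 lower at 48 h. Over all genes 4.93% were higher and 5.97% lower at 24 h, and 2.56% and 3.89% at 48 h. Of the 12 that belong to fatty acid synthesis and glucose use, 6 were lower and 0 higher at 24 h and 5 were lower and 0 higher at 48 h. Pklr, liver pyruvate kinase, had levels of 0.07, 0.17, 0.41 and 0.67 at 0 h against -0.67, -1.21, -0.93 and -0.46 at 24 h, without overlap, a difference of -1.15 ± 0.21 (SE; adjusted p 0.32), and of -0.47 ± 0.21 at 48 h. Me1, the malic enzyme that supplies reducing power for synthesis, was at 4.05, 4.09, 4.42 and 4.44 at 0 h against 2.41, 1.57, 3.20 and 3.35 at 24 h, a difference of -1.62 ± 0.37 (adjusted p 0.325). For Thrsp, which marks lipogenic liver, the difference was -0.71 ± 0.23 at 24 h, with overlap, and -0.96 ± 0.23 at 48 h, without overlap (adjusted p 0.521). For Elovl6, the elongase of palmitate, it was -0.37 ± 0.14 and -0.47 ± 0.14, likewise without overlap at 48 h only (adjusted p 0.584). Acacb, the carboxylase whose product inhibits Cpt1a, differed by -0.76 ± 0.20 at 24 h and -0.63 ± 0.20 at 48 h, and its groups did not overlap at either time (adjusted p 0.332 and 0.631). With the mean of its kept probes the differences were -0.30 and -0.19. Srebf1, the lipogenic transcription factor that insulin controls, had changes of 0.12 ± 0.21 and -0.26 ± 0.21, and its groups overlapped at both times.

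**Figure D3:**
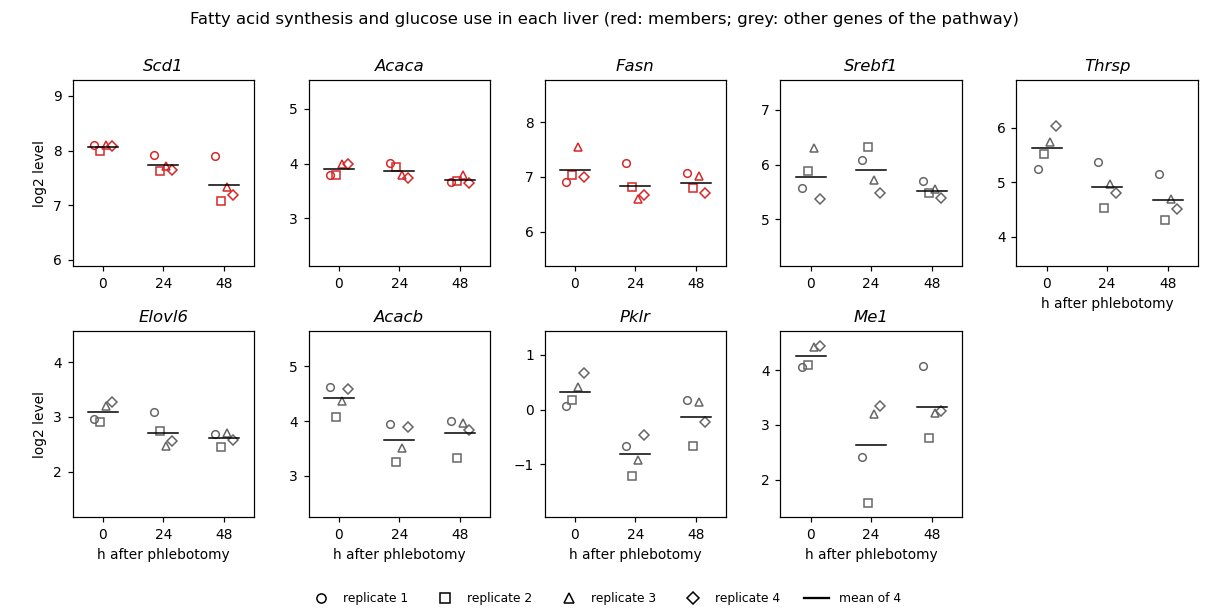
Log2 level (vertical axis) of 3 synthesis members (red) and 6 other genes of fatty acid synthesis and glucose use (grey) in each of the 12 livers at 0, 24 and 48 h, with the mean of 4 livers as a line; every panel spans the same number of log2 units. Scd1, Thrsp, Acacb and Me1 lie lower in most bled livers, while Srebf1 overlaps at all times, and none passed the adjusted test.

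On the fasting side of the same lists, Cyp4a14, a fatty acid hydroxylase that responds strongly to Ppara, lay near background at 0 h, above it on 2 of 4 arrays. Its levels were -4.42, -3.99, -4.76 and -4.36 at 0 h against -3.59, -2.53, -2.41 and -2.72 at 24 h, without overlap. The fitted difference was 1.57 ± 0.45 at 24 h (SE; adjusted p 0.341) and 0.86 ± 0.45 at 48 h. Its size depended on the background treatment: with normexp correction it was 0.52 and 0.28, and with the authors' processed values 0.88 and 0.58. Fgf21, the hepatic hormone of fasting, was at -4.20, -2.29, -3.63 and -4.36 at 0 h, at -1.98, -3.35, -1.83 and -1.95 at 24 h and at -3.37, -3.30, -1.19 and -2.51 at 48 h, with overlap and differences of 1.34 ± 0.57 and 1.03 ± 0.57, whose sizes over all settings ran from 0.56 to 1.79 and from 0.44 to 1.47. Slc37a4, which carries glucose 6-phosphate to G6pc, was lower at 24 h without overlap, by 0.50 (SE 0.12; adjusted p 0.325). Pdk4, Cpt1a and Pck1 differed from 0 h by at most 0.22 in size, and none of these differences passed.

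In marrow, 23 of the 30 members were bright enough to be tested. The 7 that were not are genes of hepatocytes and of fasting: Ppara, Ppargc1a, Fabp1, Vnn1, Pck1, G6pc and Igfbp1. With limma over 21379 genes, 0 of 23 members passed at 24 h, 0 at 48 h and 0 at 48 h against 24 h, where 1.02%, 1.23% and 0.00468% of all genes were called. At an unadjusted p under 0.05 stood 5 of 23 members at 24 h and 1 at 48 h, against 12.6% and 16% of all genes. Without 24 h replicate 2 there were 4 at 24 h, where 12.1% of genes were, and 4 at 48 h (Bdh1, Acot1, Pcx and Acaa1b), where 18.2% were. The change was above 0 for 17 of 23 at 24 h, against 44.7% of all genes, and for 12 of 23 at 48 h, against 50.3%. Without 24 h replicate 2 the count at 24 h was 12 of 23. The median of the 20 tested members outside fatty acid synthesis moved from 0.11 to 0.00.

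Bdh1 was the member of smallest p in marrow at both times. Its levels were -1.04, -0.80, -1.06 and -0.86 at 0 h, 0.01, 1.55, -0.40 and -0.03 at 24 h and -0.03, -0.02, -0.13 and -0.18 at 48 h. All bled marrows lay above all unbled marrows, and the 4 marrows at 48 h lay within 0.16 of each other. The value of 1.55 comes from the array with liver transcripts, where Bdh1 was at 9.96% of its liver level. Over all 12 arrays the difference was 1.22 ± 0.32 (SE) at 24 h (limma p 0.0029, adjusted p 0.117) and 0.85 ± 0.32 at 48 h (limma p 0.0232, adjusted p 0.227), with an exact permutation p of 0.0286 at each. Without 24 h replicate 2, Bdh1 rose by 0.80 ± 0.11 at 24 h (adjusted p from limma 0.0125) and by 0.85 ± 0.10 at 48 h (adjusted p 0.0048), and it was the 1 member called at each time, where 0.628% and 1.77% of 21495 genes were. The 48 h difference holds none of that array's values; the array entered that fit through the shared spread. Within the 3 slides, the difference was 0.93, 2.61 and 0.65 at 24 h and 0.89, 0.98 and 0.68 at 48 h, the 2.61 resting on the array with liver transcripts. The Bdh1 probe lies at chr16:31457378-31457437 on the plus strand of mm9, and a second Bdh1 probe differed by 1.32 and 0.81. Beside this, 6 of the 8 erythroid markers were higher at 48 h at an unadjusted limma p under 0.05 and 0 were lower, where 10.2% and 5.88% of all genes were. Their summed levels were 10.2 to 10.6 against 9.998 to 10.3 at 0 h. At 24 h 1 erythroid marker was higher and 1 was lower, where 5.75% and 6.86% of all genes were. Without the array with liver transcripts 1 was higher and 0 lower at 24 h, and 6 were higher and 0 lower at 48 h. The 10 hepatocyte markers summed to 0.92 to 1.15 at 48 h and to 1.06 to 2.48 at 0 h, and Ttr, Cps1 and Apoh were above background on no marrow array at 48 h. The part of the erythroid markers in the level of Bdh1 was not tested.

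**Figure D4:**
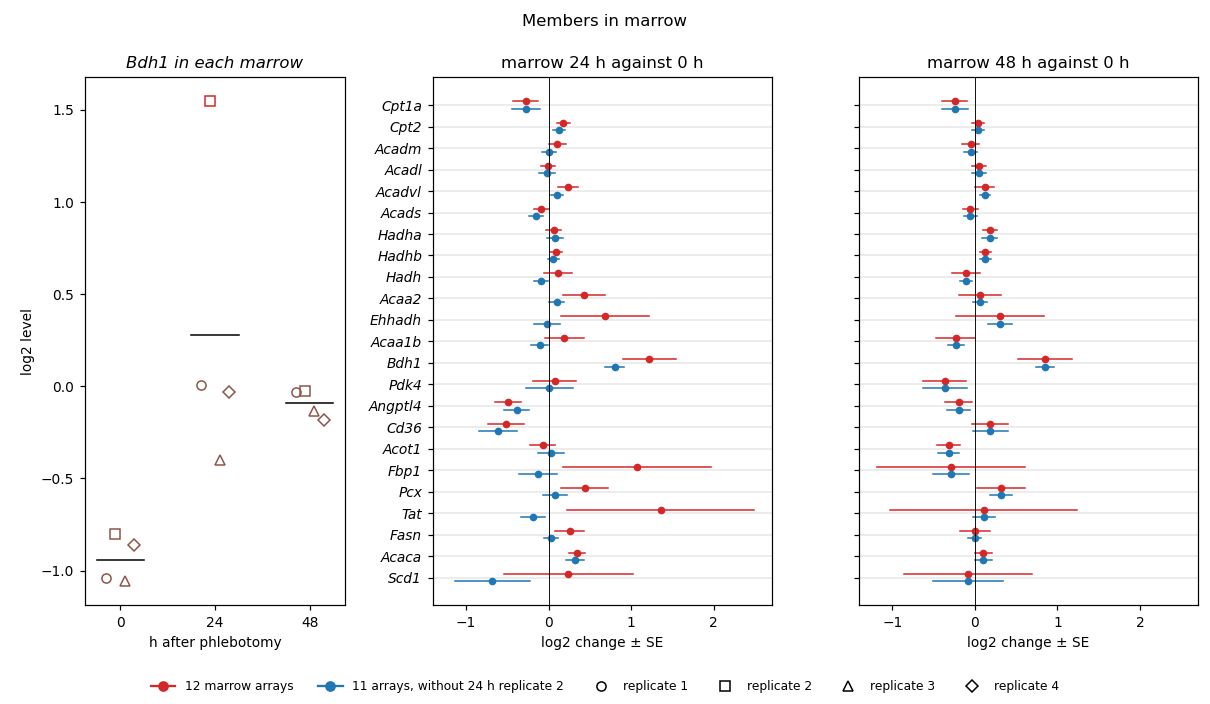
Left, log2 level of Bdh1 in each of the 12 marrows, with the mean of 4 as a line and 24 h replicate 2 in red; right, log2 change ± SE of the 23 members tested at 24 h and 48 h against 0 h, over 12 arrays (red) and over the 11 without that array (blue). Tat, Fbp1 and Ehhadh lie above 0 at 24 h only where that array is kept, while Bdh1 lies above 0 in both.

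Bdh1 is shown with both of its RefSeq promoter windows, since it was the 1 member called in marrow once the array with liver transcripts was left out. The motif GATAA, a short form of the site bound by the GATA factors of erythroid cells, was searched on both strands of the 250 bases before each start. It lay in 22.6% of promoters and in 8 of the 26 members with a window: Acadl, Acadvl, Bdh1, Fabp1, Fbp1, Pck1, Pdk4 and Tat. A member counted where any of its windows held the motif. The member count and the share of promoters therefore differ in unit and cannot be set against each other. The first Bdh1 window, chr16:31422047-31422296 on the plus strand of GRCm38.p6, holds none, and the second, chr16:31428503-31428752, holds 1, in capitals, 50 bases before the start. This match too describes letters and is not a measured binding site.
Bdh1 first window: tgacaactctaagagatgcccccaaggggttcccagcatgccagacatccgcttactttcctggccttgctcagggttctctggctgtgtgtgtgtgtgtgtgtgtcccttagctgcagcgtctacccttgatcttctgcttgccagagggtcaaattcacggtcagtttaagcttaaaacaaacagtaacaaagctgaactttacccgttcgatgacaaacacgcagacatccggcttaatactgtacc
Bdh1 second window: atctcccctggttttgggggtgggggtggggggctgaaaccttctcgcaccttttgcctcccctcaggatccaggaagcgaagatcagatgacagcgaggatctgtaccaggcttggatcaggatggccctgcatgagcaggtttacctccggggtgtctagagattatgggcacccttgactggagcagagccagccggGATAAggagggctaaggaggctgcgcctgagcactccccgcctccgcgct

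Acaca in marrow had levels of 1.49, 1.27, 1.35 and 1.27 at 0 h, 1.89, 1.76, 1.65 and 1.45 at 24 h and 1.36, 1.54, 1.40 and 1.5 at 48 h. At 24 h 3 of 4 marrows exceeded all unbled marrows; the difference over all 4 was 0.34 ± 0.10 (SE; limma p 0.0053, adjusted p 0.157), and 0.32 ± 0.11 without the array. A second Acaca probe above background in marrow differed by 0.08 ± 0.16 at 24 h. Angptl4 was at 2.40, 2.64, 2.07 and 2.66 at 0 h, at 2.14, 1.62, 1.82 and 2.22 at 24 h and at 2.37, 2.08, 2.22 and 2.32 at 48 h. It was lower at 24 h with overlap, by 0.49 (SE 0.16; adjusted p 0.21), and by 0.39 without the array. Cpt2 was at 2.02, 2.09, 2.12 and 2.18 at 0 h, at 2.26, 2.42, 2.26 and 2.18 at 24 h and at 2.04, 2.18, 2.14 and 2.21 at 48 h, a difference of 0.18 ± 0.08 at 24 h (adjusted p 0.353) that was 0.13 ± 0.07 without the array and 0.06 ± 0.13 on a second probe. Cd36 in marrow was at 0.99, 1.07, 1.25 and 1.55 at 0 h against 0.70, 1.01, 0.18 and 0.94 at 24 h, a difference of -0.51 ± 0.22 (adjusted p 0.358), and -0.61 ± 0.23 without the array. At 48 h it was at 1.53, 1.67, 0.87 and 1.54.

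At 48 h the next members in marrow were Acot1, Hadha and Hadhb. Acot1 was at -0.41, -0.52 and -0.39 at 0 h, at -0.72, -0.28 and -0.53 at 24 h and at -0.86, -1.02, -0.58 and -0.57 at 48 h. Of Acot1, 1 spot at 0 h and 1 at 24 h were outliers, so these groups have 3 values and the fit drops the missing ones. All marrows at 48 h lay below the 3 unbled values, by 0.32 (SE 0.14; adjusted p 0.312, and 0.251 without the array with liver transcripts). Hadha was at -0.31, -0.26, -0.55 and -0.25 at 0 h, at -0.30, -0.34, -0.12 and -0.37 at 24 h and at -0.24, -0.15, -0.12 and -0.15 at 48 h, a difference of 0.18 ± 0.09 at 48 h (adjusted p 0.342, and 0.309 without that array) with no overlap. Hadhb was at 3.03, 2.95, 3.02 and 3.05 at 0 h, at 3.09, 3.20, 3.07 and 3.05 at 24 h and at 3.13, 3.25, 3.06 and 3.12 at 48 h, a difference of 0.13 ± 0.07 at 48 h (adjusted p 0.385, and 0.319 without that array). Further Hadhb probes gave 0.02 and 0.28 at 48 h. Groups lay wholly above 0 h for Bdh1 and Hadhb at 24 h, where 4.14% of all genes did, and for Bdh1, Hadha and Hadhb at 48 h, where 7.99% did. They lay wholly below for Acot1 at 48 h, where 4.69% did. Of 49 other pathway genes tested in marrow 1 passed at 24 h and 48 h, where 1.02% and 1.23% of all genes did. Irs2, an adaptor of the insulin receptor, rose by 0.39 ± 0.07 at each time (adjusted p from limma 0.0229 and 0.0224). Its levels were 1.45, 1.48, 1.35 and 1.46 at 0 h. They were 1.75, 1.86, 1.87 and 1.82 at 24 h and 1.83, 1.95, 1.76 and 1.77 at 48 h. Irs2 was called under 7 of 19 settings at 24 h and 10 of 20 at 48 h, with adjusted p of up to 0.102 and 0.112, while its change stayed between 0.35 and 0.41. Without 24 h replicate 2 the adjusted p was 0.0582 at 24 h and 0.0234 at 48 h. In liver the changes of Irs2 were -0.17 ± 0.33 and -0.14 ± 0.33.

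The difference between the tissues' changes was tested in 1 fit over 24 arrays and 22758 genes. At 24 h 0 of 30 members passed, where 0.369% of all genes did, and at 48 h 0 passed, where 0.413% did. At an unadjusted limma p under 0.05 stood 6 members at 24 h and 5 at 48 h, against 11.4% and 11% of all genes. Without the marrow array with liver transcripts there were 7 at each time, where 11.4% and 12.2% of genes were. Cd36 came closest at 24 h: its change in marrow minus that in liver was -1.36 ± 0.34 (SE; adjusted p 0.089), and -1.46 ± 0.36 without the marrow array with liver transcripts (adjusted p 0.0928). Without replicate 1 of unbled liver the adjusted p was 0.0425, and without replicate 3 of liver at 24 h 0.035. For Bdh1 the difference was 1.23 ± 0.36 at 24 h (adjusted p 0.142) and 0.86 ± 0.36 at 48 h (adjusted p 0.362). Without the marrow array with liver transcripts it was 0.81 ± 0.15 (adjusted p 0.0245) and 0.86 ± 0.14 (adjusted p 0.0103). For Acaca, whose changes at 24 h were 0.34 in marrow and -0.03 in liver, the difference was 0.37 ± 0.13 at 24 h and 0.31 ± 0.13 at 48 h, with adjusted p of 0.227 and 0.366. With the mean of the kept Acaca probes the sign turned, to -0.06 and -0.08.

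Before bleeding, all 30 members differed between the 2 tissues. In unbled marrow against unbled liver, 30 of 30 members passed, where 80.3% of 22758 genes did, and 29 of them were lower in marrow, where 40.6% of genes were called lower. The exception was Cd36, at 0.99, 1.07, 1.25 and 1.55 in marrow against 0.37, -0.72, -0.36 and -0.28 in liver, 2.75-fold higher in marrow without overlap (1.46 ± 0.24, SE; adjusted p from limma 1.3e-05). Among the 10 members of mitochondrial oxidation, Hadha was 2.88-fold, Acadl 2.94-fold and Hadhb 3.22-fold higher in liver, and Acads 7.15-fold, Acadvl 11-fold and Acaa2 21.2-fold. Of the Ppara targets, Angptl4 was 3.6-fold higher in liver. Bdh1 was 56.5-fold and Scd1 112-fold higher in liver, Fbp1 322-fold and Tat 971-fold. Of the 30, 2 members were above background on no unbled marrow array, so their differences are bounds, the liver mean against the faintest signal called above background on the marrow arrays. Igfbp1 was at least 5744-fold and Vnn1 at least 15.6-fold higher in liver. Values across tissues rest on setting the 75th percentile of both equal.

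**Figure D5:**
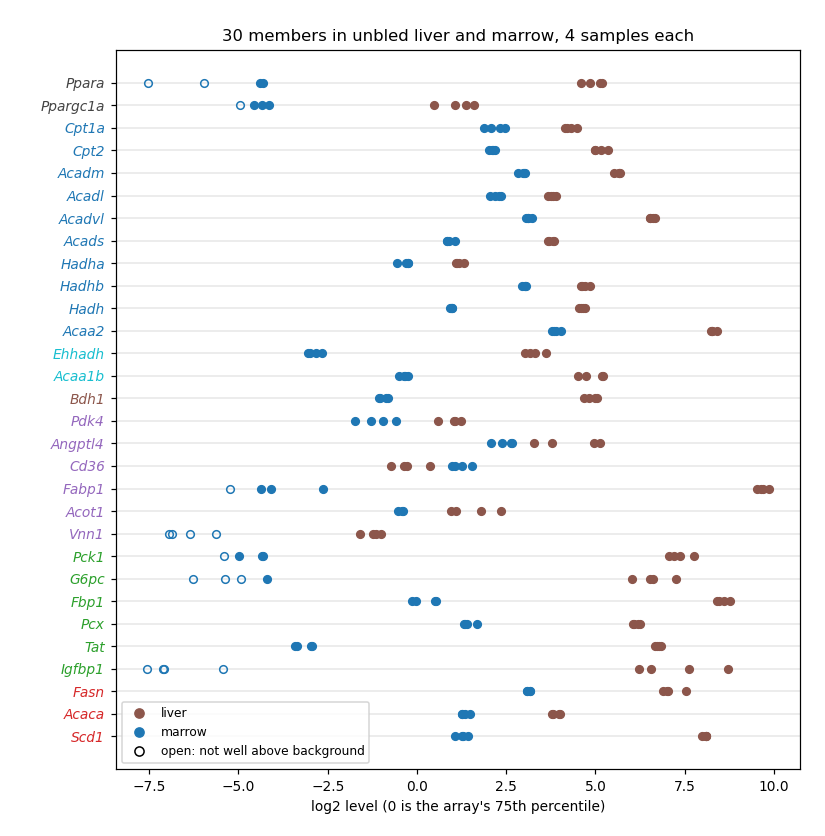
Log2 level of each of the 30 members in the 4 unbled livers (brown) and 4 unbled marrows (blue), with open points where the probe was not well above background; compare within a row only, since levels of different probes are not on 1 scale. Liver lies above marrow in every row but that of Cd36.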

How the data were processed

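Total RNA of liver and marrow was labelled with Cy3 and hybridised to 24 arrays on 3 slides of 8, each slide holding 4 livers, and the arrays were read with Agilent Feature Extraction 10.10.1.1, per the submitters' processing notes. The deposited scanner files hold background-corrected signal intensity (gProcessedSignal) per spot, per the file headers. The deposited value table holds log2 values of the authors for 38362 probes; against the median signal of its own array each column had a rank correlation of at least 0.99999, its direction is that of the signal, and column medians of 7.74 in liver and 8.31 in marrow show a scaling within each tissue whose method is not given in the sources used here. It was used as an alternative.

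From the intensity, control spots (3671 per array) and outlier spots were left out, spots of a probe were averaged, and log2 values were scaled to each array's 75th percentile. Of 56605 probes, 32956 were named by accession, 10219 by symbol and 520 by synonym through the RefSeq table, 43 carried a member's symbol and 12867 kept the name of the file. A probe was kept where it was well above background on all arrays of 1 group, and the brightest kept probe stood for a gene. The 30 members had 43 probes, 23 members having 1. Groups were compared with limma 3.58.1 (R 4.3.3; lmFit and eBayes, two-sided, 12 arrays of a tissue per fit, 24 across tissues), with Benjamini-Hochberg adjustment over all genes and a threshold of 0.05. Exact permutation tests of 4 against 4 cannot go below 0.0286. Beyond 4 mice at each time, the sources used here give only numbers for the 4 samples of a group. The p-values set a difference against the spread between these samples. Precision is limited by how many arrays a group has.

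The members, the gene lists and the tests were chosen with earlier results of these data known. Members given by sample were, in liver, 11 chosen for their role (Ppara, Ppargc1a, Cpt1a, Bdh1, Pdk4, Angptl4, Pck1, G6pc, Igfbp1, Fasn and Scd1) and the 4 of smallest p at each time, and, in marrow, those called and the 4 of smallest p. Of the other pathway genes, Fgf21, Cyp4a14, Srebf1 and the 3 of smallest p at each time in liver were named; Irs2, and Cd36 in marrow, were added after their values were seen, and some genes of this rule are not reported here. Same-numbered samples of a tissue had correlated deviations of -0.27 to 0.17. Liver and marrow of 1 time and number had correlations of 0.01 to 0.19 (median 0.13), all above 0 but not all above 0.1. These values do not settle whether liver and marrow of a number came from 1 mouse. The main fit across tissues took the arrays as independent, and the animal as a random block was an alternative. Alternatives were normexp background correction (offset 50), quantile scaling, no filter, the mean of a gene's probes, the authors' values, array weights, trend and robust eBayes, slide or replicate number as a block, only the groups compared, and leaving out each replicate. The 48 h fits without the marrow array with liver transcripts were added after seeing the data.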

Additional observations from a re-analysis of the deposited data

Results flagged for a closer look

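In 13 of 157 groups of 4 arrays, the highest or lowest value of a member lay farther from the rest than Dixon's critical value for 4 samples allows, where chance gives about 1 in 20. Of these, 9 were in marrow, and 6 of the 9 were the array labelled 24 h replicate 2, on which hepatocyte transcripts were found. On it Acadvl was at 3.76 (next highest 3.25), Hadh at 1.71 (0.96), Acaa2 at 5.31 (4.05), Ehhadh at -0.0936 (-2.73), Fbp1 at 4.89 (0.59) and Tat at 2.83 (-3.30).

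The other 3 in marrow were at 48 h: Acadvl at 3.32 in replicate 2 (next highest 3.22), Pdk4 at -0.98 in replicate 3 (next highest -1.61) and Cd36 at 0.87 in replicate 3 (next lowest 1.53). In liver, 2 values were of replicate 1 at 48 h, Ehhadh at 3.52 (next highest 3.01) and Pck1 at 6.71 (next lowest 7.66). It is also the liver of that time with the highest Scd1, and the one without which Scd1 passed the test. The other 2 were Hadha at 1.28 in replicate 2 at 48 h (next highest 1.07) and Scd1 at 7.99 in unbled replicate 2 (next lowest 8.09), in a group whose Scd1 levels spanned little.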

How the results depend on the processing

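In liver, 0 members were called at 24 h and at 48 h against 24 h under any alternative; at 48 h the count over replicates left out ran from 0 to 1 (Scd1). In marrow, it ran from 0 to 1 at 24 h and at 48 h. There 1 member, Bdh1, was called with array weights at both times, with only the arrays of the groups compared at 48 h, and without 24 h replicate 2 at both times. For the difference between the tissues' changes the count also ran from 0 to 1. At 24 h 1 member, Cd36, was called with array weights, without unbled liver replicate 1 and without 24 h liver replicate 3, and Bdh1 without 24 h marrow replicate 2. At 48 h 1 member, Bdh1, was called with only the arrays of the groups compared and without 24 h marrow replicate 2. In the unbled tissues 29 to 30 members were called over replicates left out and 30 under the other settings; the authors' values, scaled within each tissue, were not run there. With the replicate block, 0 members were called in the comparisons within a tissue and between the tissues' changes, and 30 between unbled tissues.

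Over replicates left out, the median change of the members outside fatty acid synthesis was -0.12 to -0.03 in liver at 24 h and -0.08 to -0.02 at 48 h. In marrow it was 0.00 to 0.19 at 24 h and -0.05 to 0.05 at 48 h. Counts of all genes called ran over the other settings from 69 to 381 and 98 to 713 in marrow, against 217 and 264, from 16 to 164 and 24 to 179 for the difference between tissues, against 84 and 94, and were 0 in liver. Without single replicates they reached 2 in liver at 24 h and 9 at 48 h. Of 1930 values of members under alternatives, 99 had the other sign than the reported one. The largest reported change among these was 1.36 in size. In marrow at 24 h, Tat, Fbp1 and Ehhadh were above 0 over all arrays. Without the array with liver transcripts they were at -0.19, -0.13 and -0.02. The cause of the other sign changes was not tested.

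With 4 livers per group, the SE of a member's change was 0.06 to 0.94 (median 0.12), so the wide-spread members Angptl4, Igfbp1 and G6pc could differ by more than 1 log2 unit without a call. Members near background in marrow have only bounds there. Feeding and hour of sampling are not given in the sources used here, and their part in the members' levels was not tested.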

Other observations

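The lists of cell type markers were counted at an unadjusted limma p under 0.05, since 0 markers passed the adjusted test in either tissue over all arrays. In liver, the 10 hepatocyte markers had 0 higher or lower at 24 h and 1 higher at 48 h, with summed levels of 12.7 to 13.0 at all times. Of 6 erythroid markers tested in liver, 2 were higher and 2 lower at 24 h and 2 were higher and 1 lower at 48 h; their summed level was 5.70 to 6.16 at 0 h, 6.14 to 6.32 at 24 h and 6.20 to 6.72 at 48 h. Of 4 B cell markers 2 were higher at 24 h and 0 at 48 h. Kupffer cell, endothelial, cholangiocyte and neutrophil markers had 0 at either time, stellate cell markers 1 higher at 48 h, and adipocyte markers 1 lower at 48 h. Over all genes in liver 4.93% were higher and 5.97% lower at 24 h, and 2.56% and 3.89% at 48 h.

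In marrow, 4 of 5 B cell markers were lower at 24 h and 0 at 48 h, and of 4 Kupffer cell markers tested 2 were lower at 24 h and 1 at 48 h. Neutrophil, endothelial, stellate cell, cholangiocyte and hepatocyte markers had 0 at either time, and of 8 adipocyte markers 1 was lower at 48 h. Over all genes in marrow 5.75% were higher and 6.86% lower at 24 h, and 10.2% and 5.88% at 48 h. Clock genes follow the hour of sampling. Of 8 tested, 5 were higher in marrow at 24 h and 0 lower (lowest adjusted p 0.0547), and 3 were higher and 1 lower at 48 h. Without the marrow array with liver transcripts, the counts of B cell markers at 24 h became 3 lower, of Kupffer cell markers 3 lower, of endothelial markers 1 lower and of hepatocyte markers 5 of 6 lower, with 2 lower at 48 h; those of the clock genes were 5 higher at 24 h and 3 higher and 1 lower at 48 h. In that fit Cd5l, a Kupffer cell marker named after its values were seen, was lower at 48 h and passed with an adjusted p from limma of 0.0464. Of 21495 genes 1.77% were called there. In liver 1 of the 8 clock genes was higher at 24 h, Dbp by 1.17, and 0 at 48 h. The part of these in the members' levels was not tested.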
